A study of Homo sapiens with 24 samples.

Results

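Retinoid metabolism and receptor genes were followed in 4 multiple myeloma cell lines after knockdown of IRF4. The genes were the 9 rows of the deposited expression table with the symbols CYP26A1, CYP26B1, RARA, RARB, RARG, RXRA, RXRB, CRABP2 and DHRS3, out of 25370 rows in all. CYP26A1 was chosen by its lower TPM with siIRF4 in MM1R and MM1S, so its values there are described with no test, and the other 8 genes were taken as receptors and enzymes to set beside it. Multiple myeloma is a cancer of plasma cells, and IRF4 is a transcription factor on which plasma cells depend.

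Total RNA was sequenced from MM1R and MM1S, which are sublines of a line from the same patient, and from KMS-12-BM and KMS-12-PE, which came from the bone marrow and the pleural effusion of another patient. Each line had 3 CTRL and 3 siIRF4 libraries, 24 in total, from cells grown in RPMI medium with serum. The siIRF4 cells had been electroporated with a pool of siRNAs against IRF4 and carried a time of 48 hours, and the CTRL cells were labelled DMSO at 0 hour. The labels name no control siRNA, so knockdown of IRF4, delivery of siRNA, electroporation, DMSO and time cannot be told apart, and they do not say that replicates were separate cultures, so every p-value measures only the spread between these libraries.

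Vitamin A (retinol) is oxidised to retinal and then to retinoic acid, the form that acts on genes. Retinoic acid binds the receptors RARA, RARB and RARG, which pair with RXRA, RXRB or RXRG on repeated DNA half-sites, and enzymes of the CYP26 family destroy it. CYP26A1, RARB and DHRS3 are known to be switched on by retinoic acid itself, and retinoic acid has been studied in myeloma because it slows the growth of some myeloma cells.

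The levels are TPM (transcripts per M, a read count scaled by gene length and library), and behind them lay 17.3 to 27.4 M reads per library as recovered from the values. IRF4 was lower with siIRF4 in every line, with no overlap of the libraries. MM1R had a mean of 380.3 TPM as CTRL and 291 as siIRF4, MM1S 283 and 141, KMS-12-BM 361 and 222, and KMS-12-PE 327 and 155. In MM1R, with the least reduction, IRF4 fell by 23.5%, and in KMS-12-PE, with the largest, it fell by 52.6%. The 10 plasma cell markers were each at a mean of at least 1 TPM in every group, except for TNFRSF13B in KMS-12-PE siIRF4, at 0.0221. The libraries labelled MM1S and KMS-12-PE also held transcripts of keratinocytes and stromal cells: KRT5, a keratin of basal skin cells, had a CTRL mean of 50.9 TPM in MM1S and 55.8 in KMS-12-PE, against 0.0173 in MM1R and 0 in KMS-12-BM, and DCN, a collagen-binding protein of fibroblasts, had 19.2 and 31.9 TPM against 0.0141 and 0.0667. Of 12 keratinocyte markers, 10 in MM1S and 12 in KMS-12-PE had a CTRL mean of at least 1 TPM. In MM1R 3 did and in KMS-12-BM 1. Of 9 stromal markers all did in MM1S and KMS-12-PE, 0 in MM1R and 2 in KMS-12-BM. COL6A3 had 64.7 to 69.6 TPM in KMS-12-BM CTRL. The stromal sum there, 70.7 to 75.2, overlapped that of MM1S CTRL (69.4 to 142). Because of KRT5 and DCN, results over several lines are also given for MM1R and KMS-12-BM alone, a setting chosen after seeing the data. It is not free of all these markers.

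The stretches before the start of CYP26A1 and RARB are shown because they are the only 2 of the 9 genes whose RefSeq promoter windows (GRCh38.p14, 250 bases before to 50 after each start) held a DR5 element, the arrangement to which a pair of RAR and RXR is known to bind. Each stretch is the 110 bases before a start site, on the plus strand, at chr10:93073783-93073892 for CYP26A1 and chr3:25428153-25428262 for RARB, and the capitals mark the DR5.
CYP26A1: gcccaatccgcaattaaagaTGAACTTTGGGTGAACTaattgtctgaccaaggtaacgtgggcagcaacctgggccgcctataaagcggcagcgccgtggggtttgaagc
RARB: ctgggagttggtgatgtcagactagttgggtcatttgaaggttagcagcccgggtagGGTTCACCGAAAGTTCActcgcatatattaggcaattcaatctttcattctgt
The DR5 searched was a direct repeat of the half-site AGGTCA or any of its variants, here AGTTCA and also GGGTCA and also GGTTCA, with 5 bases between, on both strands. In CYP26A1 it lay 90 to 74 bases before the start and read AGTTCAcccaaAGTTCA on the opposite strand, and in RARB it lay 53 to 37 bases before the start and read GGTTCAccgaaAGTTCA on the gene's strand. The elements were identical at 15 of 17 bases. A DR5 was present in 31 of 35116 windows of this length over all genes, or 0.0883%, so it was rare among promoters at large. All 9 genes matched the RefSeq table, with 19 windows. None of them held a DR2 (0.0399% of all windows) or a DR1 (0.131%), the same repeats 2 bases or 1 base apart, or GGAANNGAAA (2.82%), a composite element that IRF4 is known to bind with an ETS partner. GAAANNGAAA, the interferon-type element that IRF4 can bind, was found in a window of CYP26A1 and in that of RARG, and in 3.57% of all windows. A match describes the letters in the window and shows no binding.

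Among the genes for clearance of retinoic acid, CYP26A1 stood at a high level in the MM1 lines alone and was lower there with siIRF4. CYP26A1 is the cytochrome P450 that hydroxylates retinoic acid. In MM1R its CTRL libraries had 41.3, 41.3 and 39.3 TPM and its siIRF4 libraries 9.54, 13.3 and 12.5 TPM. In MM1S the CTRL libraries had 63.9, 62.3 and 67.8 TPM and the siIRF4 libraries 15.5, 12.1 and 13.0 TPM. Every siIRF4 library lay under every CTRL library of its line, and MM1S CTRL was the highest group of all 8. The mean went from 40.6 ± 1.15 to 11.8 ± 1.97 TPM in MM1R and from 64.7 ± 2.83 to 13.5 ± 1.79 in MM1S (SD, n = 3), a fall of 71.0% and of 79.1%. On the log2(TPM + 1) scale used for every test, the change was -1.72 ± 0.13 in MM1R and -2.18 ± 0.13 in MM1S (± SE), the 9th and the 2nd lowest of 15113 genes. These are the values that chose the gene. They rest on 849 to 964 recovered reads per MM1R CTRL library and 240 to 366 per MM1R siIRF4 library, and on 1167 to 1663 and 269 to 325 in MM1S. The siIRF4 groups of MM1R and MM1S overlapped with each other, although their CTRL groups did not. In bulk RNA, fewer cells that express a gene and less RNA of it per cell cannot be told apart.

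CYP26A1 was near 0 in the KMS-12 lines. The KMS-12-BM libraries had 0.128, 0 and 0.0372 TPM as CTRL and 0.214, 0.0959 and 0.0419 as siIRF4, and those of KMS-12-PE had 0.216, 0.0887 and 0.681 as CTRL and 0.236, 0.291 and 0.0809 as siIRF4. These are 0 to 6 reads per KMS-12-BM library and 2 to 16 per KMS-12-PE library. The groups overlapped in each line, and neither log2 change passed the test (KMS-12-BM 0.08, limma adjusted p = 0.75; KMS-12-PE -0.12, adjusted p = 0.51). As a share of the mean over the MM1 CTRL libraries, CYP26A1 lay between 0 and 0.407% in KMS-12-BM and between 0.154% and 1.29% in KMS-12-PE. ITGB7, an integrin gene high in the MM1 lines, lay at 0.485% to 1.55% by the same measure in KMS-12-BM, and at 0.448% to 0.631% in KMS-12-PE CTRL against 0.0750% to 0.0884% in siIRF4. A part of MM1 RNA in the KMS-12 libraries was not tested.

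CYP26B1, the second enzyme of the family, was listed at 0 to 0.133 TPM and CYP26C1, the third, at 0 in every MM1 group. CYP26B1 had at most 6 reads in any library. The MM1S CTRL libraries had 6, 3 and 6 reads and the MM1S siIRF4 libraries 3, 1 and 1, groups that touch in reads. In TPM they did not overlap (0.0872 to 0.133 in CTRL and 0.0239 to 0.0781 in siIRF4). CYP26B1 was too low to be tested, and KMS-12-BM had no reads of it. CYP26A1 was thus the only gene of the family measured above 1 TPM in any library.

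The genes whose pattern was most like that of CYP26A1, by Pearson r of log2(TPM + 1) over the 24 libraries, were KCNS3 (r = 0.994), C3orf52 (0.991), FAM189A1 (0.990), ARNT2 (0.990) and ARSI (0.989). The libraries of a line share most of this pattern, so r is a description and carries no p. KCNS3, which encodes a subunit of a potassium channel, went from 13.7 to 6.5 TPM in MM1R and from 18.5 to 8.38 in MM1S. C3orf52 went from 21.5 to 10.03 and from 23.6 to 7.33. Each of the 5 genes had a mean of at most 0.259 TPM in the KMS-12 groups, as CYP26A1 had 0.329 at most. Among the other retinoid genes, r with CYP26A1 was 0.927 for RXRA and 0.739 for RARA, and between -0.309 and -0.133 for RARG, RXRB, CRABP2 and DHRS3.

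**Figure D1:**
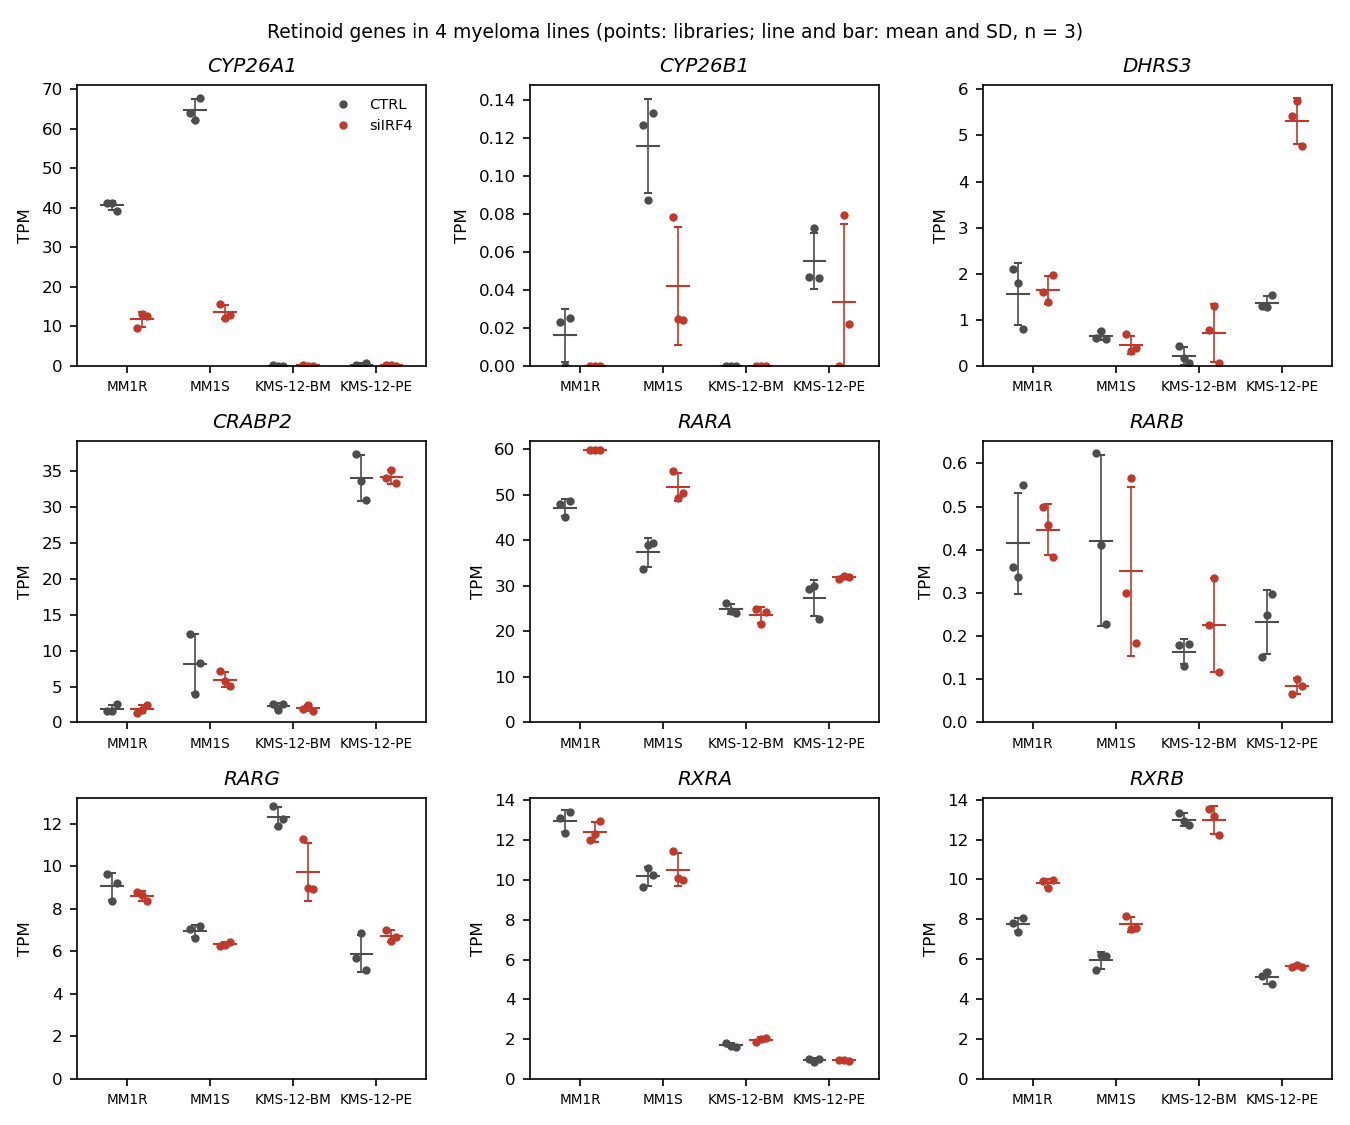
Levels of the 9 retinoid genes in TPM, with a panel for each gene. Points are libraries and bars are means of 3 libraries, by cell line and treatment. The siIRF4 points of CYP26A1 lie between 9.54 and 15.5 TPM in the MM1 lines, under CTRL points between 39.3 and 67.8, and all KMS-12 points lie under 1 TPM.

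DHRS3 rose with siIRF4 in KMS-12-PE and in no other line by the test. DHRS3 is the reductase that returns retinal to retinol and so lowers the supply of retinoic acid. Its KMS-12-PE libraries had 1.31, 1.28 and 1.53 TPM as CTRL and 5.43, 5.75 and 4.77 TPM as siIRF4. All siIRF4 libraries lay above all CTRL libraries, with 80 to 110 reads against 20 to 25. The mean went from 1.37 ± 0.140 to 5.32 ± 0.499 TPM, which is 3.88-fold (log2 change 1.41 ± 0.21, limma adjusted p = 2.9e-05). In the same libraries the sum of 9 markers of T and NK cells was 26.0 to 29.9 TPM in CTRL and 60.9 to 66.3 in siIRF4, with CD3D and TRAT1 at 0 in siIRF4. The sum of 12 keratinocyte markers was 514 to 564 TPM in CTRL and 206 to 256 in siIRF4, and that of 9 stromal markers 84.1 to 121 and 39.4 to 48.4, so those moved the other way. The part of other cell types in the DHRS3 result was not tested.

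In the other lines DHRS3 stayed low. MM1R had 2.09, 1.80 and 0.799 TPM as CTRL and 1.60, 1.38 and 1.97 as siIRF4 (0.08, adjusted p = 0.81). MM1S had 0.615, 0.768 and 0.587 against 0.688, 0.324 and 0.379 (-0.19, adjusted p = 0.51). KMS-12-BM had 0.429, 0.161 and 0.0535 against 0.771, 1.31 and 0.0603, from 1 to 19 reads (0.44, adjusted p = 0.18). CTRL and siIRF4 overlapped in each of these 3 lines. In KMS-12-BM 1 library decided the call: without siIRF4 replicate 3 the change was 0.75 with adjusted p = 0.0069. The response of the MM1 lines was lower than that of the KMS-12 lines by the test of the difference (-0.98 ± 0.21, adjusted p = 0.00092), but between MM1R and KMS-12-BM alone it was -0.36 with adjusted p = 0.42.

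CRABP2, the protein that carries retinoic acid to its receptors in the nucleus, was highest in KMS-12-PE and passed the test in no line. KMS-12-PE had 37.4, 33.7 and 31.0 TPM as CTRL and 34.1, 35.2 and 33.3 as siIRF4 (means 34.1 ± 3.23 and 34.2 ± 0.948, log2 change 0.01, limma adjusted p = 1.0). MM1S varied most between replicates, with 12.3, 3.98 and 8.34 TPM as CTRL and 7.13, 5.75 and 5.05 as siIRF4 (-0.30, adjusted p = 0.36). There CTRL replicate 2 set the result, since without it the change was -0.69 with adjusted p = 0.0054. MM1R and KMS-12-BM lay between 1.35 and 2.56 TPM in all libraries, with CTRL and siIRF4 overlapping (-0.03, adjusted p = 0.96, and -0.15, adjusted p = 0.77).

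CRABP2 is also expressed in skin, and it was higher in the lines whose libraries held keratinocyte transcripts. In the MM1S CTRL libraries with 12.3, 3.98 and 8.34 TPM of CRABP2, the stromal sum was 142, 69.4 and 90.7 TPM and the keratinocyte sum 382, 441 and 588. In KMS-12-PE the keratinocyte sum was 514 to 564 TPM in CTRL and 206 to 256 in siIRF4. Its stromal sum was 84.1 to 121 and 39.4 to 48.4, while CRABP2 was 31.0 to 37.4 and 33.3 to 35.2 TPM. The part of other cell types in the CRABP2 levels was not tested. Between CTRL groups CRABP2 was lower in KMS-12-BM than in KMS-12-PE (-3.43, adjusted p = 3.4e-10), lower in MM1R than in MM1S (-1.57, adjusted p = 3.8e-05) and lower in the MM1 lines than in the KMS-12 lines (-1.11, adjusted p = 1.3e-05). Between MM1R and KMS-12-BM alone the last difference was -0.18 with adjusted p = 0.53.

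RARA, the most abundant of the 3 retinoic acid receptors in every group, rose with siIRF4 in MM1R and MM1S. MM1R libraries had 47.8, 45.0 and 48.6 TPM as CTRL and 59.8, 59.7 and 59.9 as siIRF4. MM1S libraries had 33.6, 39.0 and 39.4 as CTRL and 55.2, 49.3 and 50.5 as siIRF4. The siIRF4 libraries lay above the CTRL libraries in each line, where those of CYP26A1 lay under them. Over the libraries of all lines r between RARA and CYP26A1 was 0.739, and a link between them was not tested. The rise was 26.8% in MM1R (log2 change 0.34 ± 0.079, limma adjusted p = 0.0014) and 38.3% in MM1S (0.46 ± 0.079, adjusted p = 5.2e-05). KMS-12-BM had 26.2, 24.4 and 24.1 TPM as CTRL and 25.0, 21.7 and 24.3 as siIRF4, which overlap (-0.07, adjusted p = 0.60). KMS-12-PE had 29.3, 29.9 and 22.7 as CTRL and 31.6, 32.1 and 32.0 as siIRF4 (0.23, adjusted p = 0.028). Its groups did not overlap, but the call rests on the low CTRL replicate 3, without which the change was 0.10 with adjusted p = 0.25. The call was also lost without any of the 3 siIRF4 replicates (adjusted p from 0.053 to 0.069). The response of the MM1 lines was higher than that of the KMS-12 lines (0.32 ± 0.079, adjusted p = 0.0023), as it was between MM1R and KMS-12-BM alone (0.41, adjusted p = 0.0079). An antisense gene, RARA-AS1, is listed at up to 1.33 TPM, and the strandedness of the counting is not given in the sources used here.

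RARB stayed between 0.0658 and 0.624 TPM in all 24 libraries and so was not tested. In KMS-12-PE its libraries had 0.151, 0.248 and 0.297 TPM as CTRL and 0.0658, 0.102 and 0.0848 as siIRF4, from 5, 8 and 10 reads against 2, 4 and 3. These groups did not overlap, while those of the other 3 lines did. The stromal and keratinocyte sums were lower in the same siIRF4 libraries, and their part in RARB was not tested.

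RARG passed the test in KMS-12-BM only, where it fell. The KMS-12-BM libraries had 12.8, 11.9 and 12.2 TPM as CTRL and 11.3, 8.97 and 8.93 as siIRF4, with no overlap. The mean went from 12.3 ± 0.475 to 9.73 ± 1.35 TPM (log2 change -0.32 ± 0.083, limma adjusted p = 0.0096), but without siIRF4 replicate 2 it was -0.27 with adjusted p = 0.054, and with KMS-12-BM fitted by itself the adjusted p was 0.060. KMS-12-PE had 5.68, 6.86 and 5.14 TPM as CTRL and 7.02, 6.49 and 6.66 as siIRF4 (0.17, adjusted p = 0.11), and without CTRL replicate 2 it passed (0.27, adjusted p = 0.014). The responses of these lines differed from each other (-0.49 ± 0.12 for KMS-12-BM minus KMS-12-PE, adjusted p = 0.0044). MM1R lay between 8.35 and 9.62 TPM with overlap (-0.06, adjusted p = 0.58). MM1S had 6.64 to 7.19 TPM as CTRL and 6.25 to 6.44 as siIRF4, without overlap, but did not pass (-0.12, adjusted p = 0.25).

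RXRB rose in MM1R and MM1S, as RARA did, while RXRA passed the test in no line. The RXRs are the shared partners of RARs and of several other nuclear receptors. RXRB had 7.79, 7.38 and 8.06 TPM in MM1R CTRL and 9.92, 9.59 and 9.95 in MM1R siIRF4, a rise of 26.8% (log2 change 0.31 ± 0.057, limma adjusted p = 0.00015). In MM1S it had 5.47, 6.21 and 6.14 TPM as CTRL and 8.16, 7.53 and 7.55 as siIRF4, a rise of 30.4% (0.33 ± 0.057, adjusted p = 4.8e-05). The groups did not overlap in either line. KMS-12-BM had 13.3, 12.9 and 12.7 TPM as CTRL and 13.5, 13.2 and 12.2 as siIRF4, and the change was 0.00 with adjusted p = 0.99. KMS-12-PE had 5.15, 5.36 and 4.75 against 5.63, 5.69 and 5.63, which do not overlap (0.13, adjusted p = 0.083). This change passed with median-of-ratios scaling (adjusted p = 0.022), with a prior without trend (0.048) and with voom on recovered reads (0.0030). The response of the MM1 lines exceeded that of the KMS-12 lines (0.26 ± 0.057, adjusted p = 0.00092), as it did between MM1R and KMS-12-BM alone (0.31, adjusted p = 0.0056).

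RXRA was set apart by line and not by treatment. Its MM1R libraries had 13.1, 12.4 and 13.4 TPM as CTRL and 12.0, 12.3 and 13.0 as siIRF4, and its MM1S libraries 9.67, 10.6 and 10.3 against 11.5, 10.1 and 9.98. KMS-12-BM had 1.79, 1.67 and 1.61 against 1.84, 2.0 and 2.07, the only line without overlap, and KMS-12-PE lay between 0.873 and 1.03 throughout. The 4 log2 changes ran from -0.06 to 0.14, with adjusted p from 0.13 to 0.83. CTRL levels were higher in the MM1 lines than in the KMS-12 lines by 2.44 on the log2 scale (adjusted p = 2.2e-22). RXRG, the third RXR, had a mean of at most 0.102 TPM in any group.

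The make-up of the receptors shifted with these changes. RXRA made up 62.6% ± 0.118 of the sum of RXRA and RXRB in MM1R CTRL and 55.8% ± 0.972 in siIRF4, and 63.2% ± 0.645 and 57.6% ± 0.762 in MM1S (SD, n = 3). In KMS-12-BM it was 11.5% ± 0.298 and 13.2% ± 1.27, and in KMS-12-PE 15.9% ± 1.68 and 14.1% ± 0.375, so RXRB was the main RXR in these lines and RXRA in the MM1 lines. RARA made up 83.3% ± 0.543 of the 3 RARs in MM1R CTRL and 86.9% ± 0.365 in siIRF4, and 83.4% ± 1.76 and 88.5% ± 0.802 in MM1S. In KMS-12-BM the share was 66.6% ± 0.526 and 70.4% ± 2.24, and in KMS-12-PE 81.6% ± 1.53 and 82.4% ± 0.664. The summed RAR level went from 56.6 to 68.8 TPM in MM1R and from 44.7 to 58.3 in MM1S, against 37.4 to 33.6 in KMS-12-BM and 33.4 to 38.7 in KMS-12-PE. The shares are descriptions and were not tested.

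**Figure D2:**
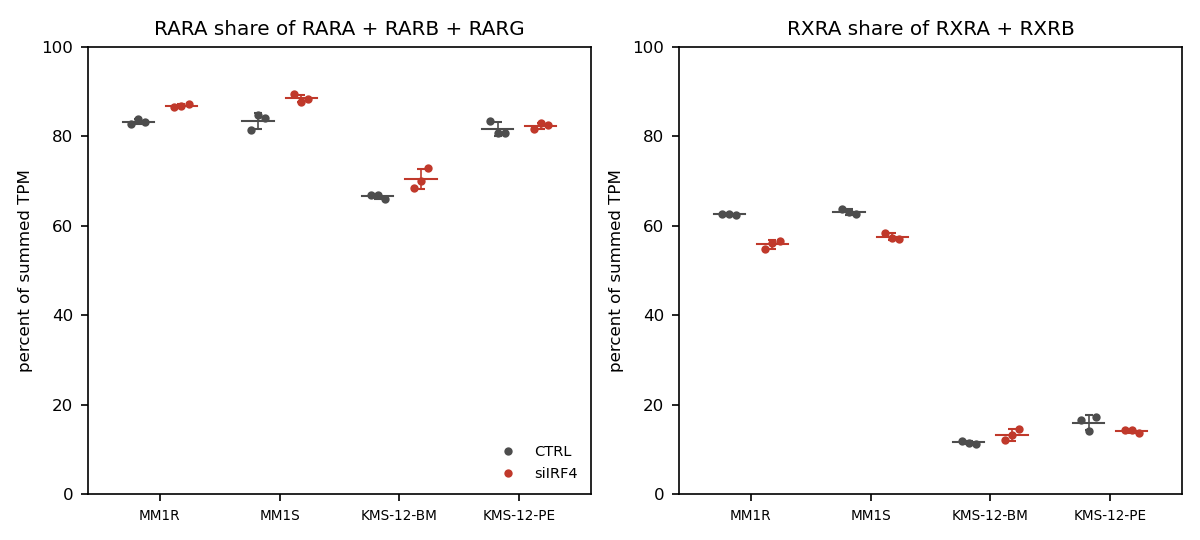
Share of RARA in the summed TPM of RARA, RARB and RARG, and share of RXRA in that of RXRA and RXRB, in percent, by cell line and treatment. Points are libraries and bars are means of 3. In the MM1 lines the RXRA share lies between 62.5% and 63.9% in CTRL libraries and between 54.7% and 58.4% in siIRF4 libraries, and it is at most 17.1% in the KMS-12 lines.

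Of the 9 genes, 7 passed the filter of at least 1 TPM in at least 3 libraries, and CYP26B1 and RARB did not. In MM1R 2 of the 6 tested genes other than CYP26A1 were called (RXRB and RARA, both higher), where 46.2% of all 15113 genes were called. In MM1S the same 2 of 6 were called, against 50.3% of all genes. In KMS-12-BM 1 of the 6 was called (RARG, lower) against 17.5%, and in KMS-12-PE 2 of the 6 (DHRS3 and RARA, higher) against 38.1%. CYP26A1 was left out of these counts too, since it passed the filter only through the MM1 libraries. These shares lie near or under those of all genes, so the number of genes called sets the retinoid genes apart in no line. The test of MM1 against KMS-12 responses called 3 of 6 (DHRS3 lower, RARA and RXRB higher), where 44.9% of all genes were called. The test of KMS-12-BM against KMS-12-PE responses called 2 of 6 (DHRS3 and RARG, both lower), where 23% of all genes were called. Averaged over the 4 lines 3 of 6 were called (RXRB, RARA and DHRS3, all higher), where 59.6% of all genes were called. Averaged over MM1R and KMS-12-BM alone 2 of 6 were called (RXRB higher and RARG lower). There 3950 of all 15113 genes were called higher and 2745 lower. The test of MM1R against MM1S responses called none of 6 (2.47% of all genes), with adjusted p from 0.64 to 0.92, and none had an unadjusted p under 0.05.

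**Figure D3:**
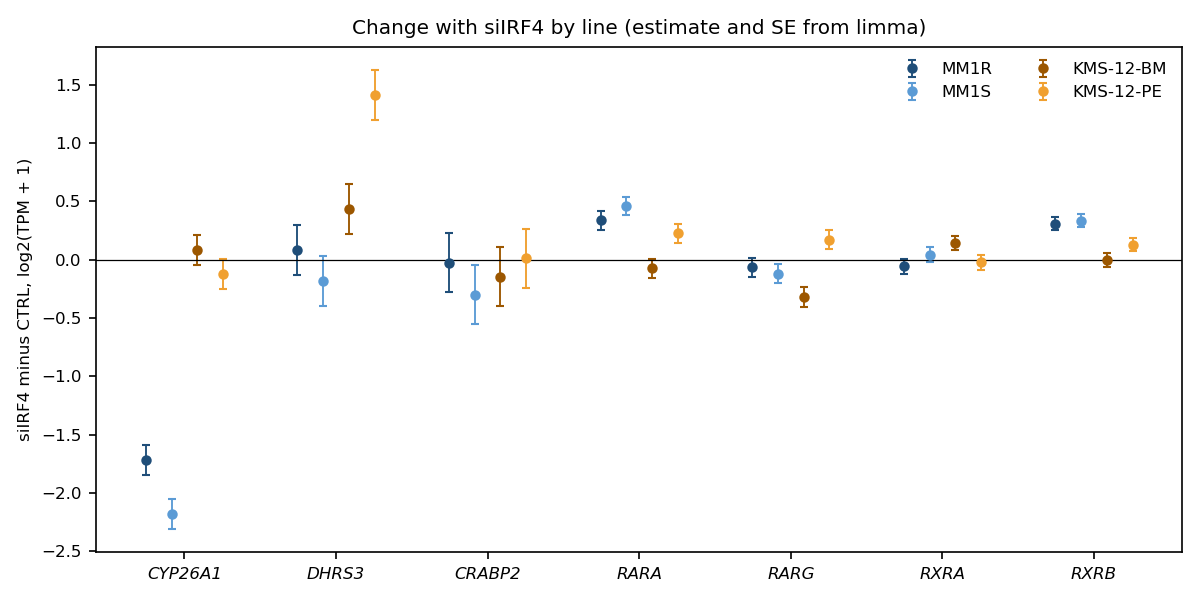
Change with siIRF4 in each line, as the difference of mean log2(TPM + 1), for the 7 retinoid genes that passed the filter. Bars are ± SE from the fit and colours are cell lines. CYP26A1 lies at -1.72 in MM1R and -2.18 in MM1S, DHRS3 at 1.41 in KMS-12-PE, and the receptors lie between -0.32 and 0.46.

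The CTRL libraries also differed between lines. RARA (0.33, limma adjusted p = 0.0012), RARG (0.34, adjusted p = 0.0016), RXRA (0.32, adjusted p = 0.00018) and RXRB (0.33, adjusted p = 4.1e-05) were each higher in MM1R than in MM1S, where 57.3% of all genes were called. DHRS3 was also higher in MM1R (0.59, adjusted p = 0.023), a call lost without CTRL replicate 1 or 2 of MM1R (adjusted p = 0.12 and 0.084), without CTRL replicate 1 or 3 of MM1S (0.059 and 0.061), with a pseudocount of 0.1 TPM (0.13) and with voom (0.070). KMS-12-BM exceeded KMS-12-PE in RXRB (1.20, adjusted p = 1.6e-14), RARG (0.96, adjusted p = 5.5e-10) and RXRA (0.46, adjusted p = 8.9e-07), and was lower in DHRS3 (-0.98, adjusted p = 0.00034), where 77.3% of all genes were called. RARA did not pass there (-0.12, adjusted p = 0.18), but without KMS-12-PE CTRL replicate 3 it did (-0.24, adjusted p = 0.0028). CYP26A1 was called lower in KMS-12-BM than in KMS-12-PE (-0.31, adjusted p = 0.037) on groups that overlap and a handful of reads, and without KMS-12-PE CTRL replicate 3 it was -0.13 with adjusted p = 0.34. It had passed the filter only through the MM1 libraries, so this call is not read as a result. The MM1 lines were above the KMS-12 lines in RARA (0.67, adjusted p = 2.1e-10) and RXRA and under them in RXRB (-0.25, adjusted p = 8.4e-06), where 85.2% of all genes were called. Between MM1R and KMS-12-BM alone these differences were 0.90 for RARA (adjusted p = 6.7e-10), 2.37 for RXRA (adjusted p = 2.9e-19) and -0.68 for RXRB (adjusted p = 2.9e-10). RARG (-0.10, adjusted p = 0.13) and DHRS3 (0.27, adjusted p = 0.11) did not pass there, although RARG did without KMS-12-PE CTRL replicate 3 (adjusted p = 0.033) and DHRS3 without MM1R CTRL replicate 3 (0.016), and between MM1R and KMS-12-BM alone RARG was lower (-0.41, adjusted p = 0.00011) and DHRS3 higher (1.05, adjusted p = 0.00014) in MM1R.

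Of 67 other genes of the retinoid pathway in the table, 39 passed the filter. In MM1R 10 of them rose and 5 fell, where 25% of all genes rose and 21.2% fell (median log2 change 0.05 against 0.03 over all genes). In MM1S 14 rose and 5 fell, where 29.1% and 21.1% of all genes did (0.16 against 0.04). In KMS-12-BM 5 rose and 8 fell, where 11.4% and 6.09% of all genes did (0.05 against 0.04). In KMS-12-PE 5 rose and 11 fell, where 15.9% and 22.2% of all genes did (-0.09 against -0.02).

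Most genes for the uptake and making of retinoic acid were near 0. STRA6, the cell surface receptor for retinol, LRAT, which stores retinol as esters, and the retinal dehydrogenases ALDH1A1 and ALDH1A2 had means of at most 0.355 TPM in any group. STRA6 had 6, 6 and 6 reads in KMS-12-PE CTRL and 26, 16 and 12 in siIRF4 (means 0.121 and 0.355 TPM). These groups did not overlap, and STRA6 was too low to be tested. RBP5, a retinol-binding protein, rose in MM1S (3.11 to 5.07 TPM, 0.55, limma adjusted p = 0.0029). It was also called higher in MM1R (0.37), a call lost with no filter (adjusted p = 0.059), with the replicate block (0.062) and with separate fits (0.061). RDH11, a reductase of retinal, fell in all 4 lines: from 53.2 to 43.0 TPM in MM1R (-0.30, adjusted p = 3.8e-05), 41.4 to 31.6 in MM1S (-0.38, adjusted p = 1.5e-06), 102 to 89.3 in KMS-12-BM (-0.19, adjusted p = 0.0099) and 55.5 to 45.4 in KMS-12-PE (-0.29, adjusted p = 9.9e-05). The KMS-12-BM call was lost without siIRF4 replicate 2 (adjusted p = 0.058) and with separate fits (0.071). Of the 9 tested genes of retinol and retinal oxidation and reduction, DHRS3 included, 3 were called in each MM1 line, 4 in KMS-12-PE and 2 in KMS-12-BM. Over all genes 46.2% were called in MM1R, 50.3% in MM1S, 38.1% in KMS-12-PE and 17.5% in KMS-12-BM. The share of the list was under that background in the MM1 lines (33.3% in each). It was somewhat above it in KMS-12-PE (44.4%) and KMS-12-BM (22.2%). With only 9 genes these shares are not read as a result about the list. RDH10, which makes retinal from retinol, fell in KMS-12-PE (9.21 to 6.47 TPM, -0.45, adjusted p = 5.2e-05).

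FABP5, a carrier that can hand retinoic acid to the PPAR branch, was the most abundant of the binding proteins and fell in all 4 lines. It went from 455 to 406 TPM in MM1R (-0.16, limma adjusted p = 0.018), 538 to 479 in MM1S (-0.17, adjusted p = 0.015), 334 to 287 in KMS-12-BM (-0.22, adjusted p = 0.0074) and 340 to 257 in KMS-12-PE (-0.40, adjusted p = 7.1e-06). The call was lost without CTRL replicate 2 or siIRF4 replicate 2 of MM1R (adjusted p = 0.062 and 0.059), without CTRL replicate 2 or siIRF4 replicate 3 of MM1S (0.069 and 0.063), and in KMS-12-BM without siIRF4 replicate 1 (0.067) and with separate fits (0.066). FABP5 has near-identical pseudogenes between which reads can be split. It is abundant in keratinocytes, whose marker sum was lower in KMS-12-PE siIRF4. In MM1R that sum was 115 to 118 TPM in CTRL and 155 to 172 in siIRF4. There S100A9 was higher in siIRF4 (21.9 to 27.0 and 91.6 to 98.5 TPM) and KRT10 lower (78.0 to 81.6 and 51.6 to 66.7). KRT14, KRT6A, DSG3 and S100A8 were at 0 in all MM1R libraries, so the rise of the MM1R sum lay in S100A9. CRABP1, the relative of CRABP2, had a mean of 0 in MM1R and KMS-12-BM and at most 1.22 TPM elsewhere.

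Of 13 receptor coregulators tested, 7 rose and none fell in MM1S, where 29.1% of all genes rose and 21.1% fell, and none rose and 5 fell in KMS-12-PE, where 15.9% rose and 22.2% fell. In MM1R 3 rose and none fell (25% and 21.2% of all genes), and in KMS-12-BM 2 rose and 1 fell (11.4% and 6.09%), which is near the share of all genes that rose. A difference between lines was not tested for the group. PRAME, a tumour antigen that represses RAR, rose from 13.1 to 18.9 TPM in MM1R (0.50, limma adjusted p = 9.5e-06) and from 9.14 to 17 in MM1S (0.83, adjusted p = 6.5e-09), and had a mean of at most 0.470 in the KMS-12 lines. NCOA3, a coactivator, rose in MM1R (42.1 to 54.7 TPM, 0.37, adjusted p = 4.7e-05) and MM1S (40.4 to 56.6 TPM, 0.47, adjusted p = 1.8e-06) and fell in KMS-12-PE (53.9 to 45.6 TPM, -0.24, adjusted p = 0.0049). NRIP1, a corepressor that retinoic acid induces, rose in MM1R (0.43, adjusted p = 0.00022) and MM1S (0.65, adjusted p = 1.2e-06) and fell in KMS-12-PE (-0.31, adjusted p = 0.0049), where the call was lost with a pseudocount of 0.1 TPM (adjusted p = 0.078).

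Of 9 tested genes known to be induced by retinoic acid, apart from CYP26A1, 4 rose and none fell in MM1R, where 25% of all genes rose and 21.2% fell (median log2 change 0.08 against 0.03 over all genes). In MM1S 4 rose and 1, CD38, fell, where 29.1% and 21.1% of all genes did (0.14 against 0.04). In the KMS-12 lines CYP26A1 was counted as well, although it passed the filter only through the MM1 libraries. Of these 10 genes 2 rose and 1 fell in KMS-12-BM, against 11.4% and 6.09% (0.05 against 0.04). In KMS-12-PE 3 rose and 1 fell, against 15.9% and 22.2% (0.12 against -0.02). The other tested genes of the list did not pass in these lines, and the rest of its 19 genes were not tested. RARRES3, a retinoid-responsive growth suppressor, had 6.80, 7.02 and 7.35 TPM in MM1R CTRL and 15.1, 13.6 and 12.3 in MM1R siIRF4 (0.86, limma adjusted p = 2.9e-05). In MM1S it had 6.04, 8.13 and 9.64 against 15.0, 14.7 and 16.2 (0.89, adjusted p = 1.6e-05), and it rose in KMS-12-BM as well (means 0.678 and 2.10 TPM, 0.87, adjusted p = 0.00013). In KMS-12-PE its means were 8.57 and 11 TPM (0.33, adjusted p = 0.068), and it passed with separate fits (adjusted p = 0.022) and among genes with a mean of at least 5 TPM (0.0497). RARRES3 rose in the MM1 lines, where CYP26A1 was lower with siIRF4, and in KMS-12-BM, where CYP26A1 was near 0 in both groups. A link between the genes was not tested.

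ASB2, a ubiquitin ligase subunit first described as a retinoic acid target in leukaemia cells, rose most in KMS-12-PE, the line in which DHRS3 rose. Its KMS-12-PE libraries had 22.5, 21.8 and 18.8 TPM as CTRL and 83.4, 78.4 and 76.6 as siIRF4 (1.87, limma adjusted p = 1.7e-13), without overlap. In MM1S it went from 5.89 to 7.85 TPM (0.36, adjusted p = 0.00071) and in MM1R from 6.19 to 7.53 (0.25, adjusted p = 0.014, but 0.11 without CTRL replicate 2). Both calls were lost with a pseudocount of 0.1 TPM (adjusted p = 0.051 and 0.19). CD38, a surface enzyme that retinoic acid induces and a target of myeloma antibodies, fell in KMS-12-BM (26.2 to 16.4 TPM, -0.67, adjusted p = 0.00056), with an adjusted p of 0.063 when that line was fitted by itself. In MM1S its means were 27.8 and 22.4 TPM (-0.30, adjusted p = 0.046), a call that leaving out any of the 6 libraries ended. In KMS-12-PE CD38 means were 197 and 171 TPM (-0.21, adjusted p = 0.19), and the change passed with the replicate block (adjusted p = 0.032), with separate fits (0.032) and with voom (0.036). CD38 is also 1 of the 10 plasma cell markers.

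Of 9 tested nuclear receptors that share RXR with the RARs, 1 rose and 2 fell in MM1R, 2 rose and 1 fell in MM1S, 1 rose and 3 fell in KMS-12-BM, and 2 rose and 2 fell in KMS-12-PE. The share called in the MM1 lines was under the 46.2% and 50.3% of all genes called there, and in the KMS-12 lines it was above the 17.5% and 38.1%. With only 9 genes these shares are not read as a result about the group. VDR, the vitamin D receptor, fell in MM1R (48.1 to 40.1 TPM, -0.26, limma adjusted p = 0.00075), MM1S (38.1 to 31.2 TPM, -0.28, adjusted p = 0.00027) and KMS-12-BM (27.4 to 15.4 TPM, -0.80, adjusted p = 2.7e-09), and rose in KMS-12-PE (32.8 to 39.7 TPM, 0.27, adjusted p = 0.00061). THRA, a thyroid hormone receptor, rose in MM1S (4.21 to 6.90 TPM, 0.60, adjusted p = 4.4e-06). It was also called higher in MM1R and KMS-12-PE, but both calls were lost with separate fits (adjusted p = 0.064 and 0.089). NR4A1, an orphan receptor, fell in MM1R (-0.59, adjusted p = 1.7e-05), KMS-12-BM (-0.49, adjusted p = 0.00056) and KMS-12-PE (-1.13, adjusted p = 3.0e-09).

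**Figure D4:**
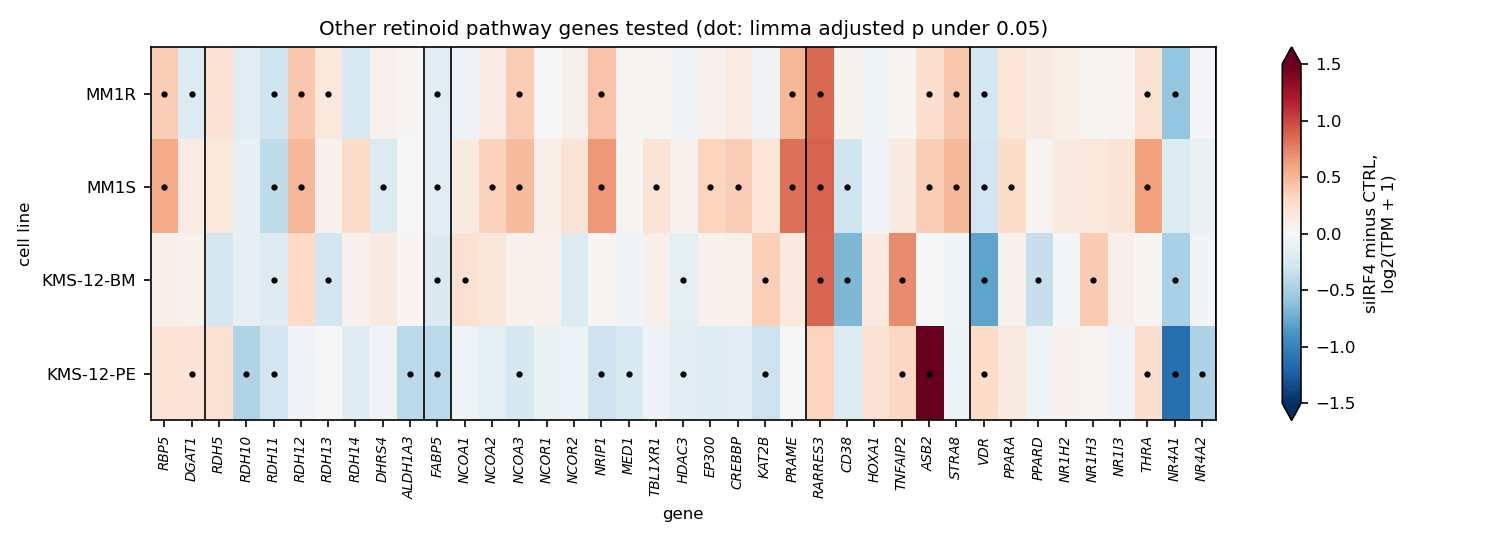
Change with siIRF4 in each line, as the difference of mean log2(TPM + 1), for the other tested genes of the retinoid pathway in blocks by role; the colour scale stops at 1.5 in either direction and a dot marks an adjusted p under 0.05. The coregulator block holds 7 rises and no fall in MM1S and 5 falls and no rise in KMS-12-PE, and FABP5 and RDH11 are lower in all 4 lines.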

How the data were processed

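The files give TPM values that the authors deposited, a column per library. Per the submitters' processing notes, reads were aligned to hg19 with STAR and counted with featureCounts, with FastQC and MultiQC reports; their versions, the gene models, the strandedness and the lengths used are not given in the sources. Left out were 28 rows with dates in place of symbols and 1 unnamed row. Reads were recovered from whole-read steps within genes (tolerance 0.02 reads, at least 6 libraries with a value), for 20484 genes that cover at least 99.96% of each library's TPM. For the tests, log2(TPM + 1) was taken for 15113 genes at or over 1 TPM in 3 or more libraries, in 1 fit of 8 group means in limma 3.58.1 (R 4.3.3) with a trended, robust prior, two-sided, with Benjamini-Hochberg adjustment within each comparison and a threshold of 0.05. The pseudocount understates changes of low genes. Summaries used Python 3.11.15 with numpy 2.4.6 and pandas 2.3.3, figures matplotlib 3.10.9, and sequences the RefSeq promoter table of GRCh38.p14. The fit was tested on simulated data. Replicates of a group were not copies of a library (lowest chi-square per degree of freedom 2.10).

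The genes and lists were chosen with earlier results of these data known. Named were IRF4, the 9 retinoid genes, genes of each pathway list by smallest p on average or by level, the 5 genes most correlated with CYP26A1, and markers of other cell types; CYP26C1, RXRG, CRABP1, STRA6, LRAT, ALDH1A1, ALDH1A2, CD38, ASB2, ITGB7 and RARA-AS1 were named outside that rule, after their values were seen. The settings varied in turn were the pseudocount (0.1), the filter (none, or a mean over libraries of 5 TPM), the scaling (median of ratios), a prior without trend, the replicate number as a block, separate fits of the groups compared, voom on recovered reads, leaving out each library and, added after seeing the data, MM1R and KMS-12-BM only.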

Additional observations from a re-analysis of the deposited data

Results flagged for a closer look

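A total of 5 responses to siIRF4 differed between lines by the test of the difference (limma on log2(TPM + 1)). Over all genes, 44.9% were called in the test of MM1 against KMS-12 responses. In the test of KMS-12-BM against KMS-12-PE responses 23% were called. For DHRS3 the response of the MM1 lines was lower than that of the KMS-12 lines (-0.98, adjusted p = 0.00092), and the response of KMS-12-BM was lower than that of KMS-12-PE (-0.98, adjusted p = 0.025). Between MM1R and KMS-12-BM alone the first DHRS3 difference did not pass (-0.36, adjusted p = 0.42). The second DHRS3 difference did not pass with a pseudocount of 0.1 TPM (adjusted p = 0.53), with voom (0.61), with separate fits (0.054), or without KMS-12-BM CTRL replicate 1 (0.069), KMS-12-BM siIRF4 replicate 3 (0.060) or KMS-12-PE siIRF4 replicate 2 (0.057). For RARA the MM1 response was higher than the KMS-12 response (0.32, adjusted p = 0.0023). For RXRB it was also higher (0.26, adjusted p = 0.00092). For RARG the response of KMS-12-BM was lower than that of KMS-12-PE (-0.49, adjusted p = 0.0044).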

How the results depend on the processing

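No called value reversed. Among single genes, 69 calls were lost and 32 gained over all genes, lines and settings run, against 2031 values that stayed the same. For CYP26A1 in comparisons that include an MM1 line, this was judged by a distance set from the SE and not by the threshold. There 7 values moved beyond the distance. An example is the MM1 CTRL minus KMS-12 CTRL difference, 5.48 in the main fit and 8.71 with voom. Leaving out a library in turn moved the log2 change of CYP26A1 between -1.80 and -1.58 in MM1R and between -2.28 and -2.11 in MM1S. The counts of called retinoid genes and of other pathway genes were held to a limit of 1.5 times. The log2 changes of CYP26A1 in MM1R and MM1S were held to a distance set from the SE. Together, 277 of these results stayed within their limit, and the others were as follows. With separate fits, which use fewer libraries, 0 retinoid genes were called in KMS-12-BM, 1 in KMS-12-PE, and 7 other pathway genes in KMS-12-BM, against 1, 2 and 13. With a mean of at least 5 TPM, 1 was called in KMS-12-PE, since DHRS3 is then not tested. Leaving out a library gave 0 to 2 retinoid genes in KMS-12-BM, 1 to 3 in KMS-12-PE, and 9 to 14 other pathway genes in MM1R (9 without CTRL replicate 2) against 15; the cause was not tested. Replicate numbers do not pair the libraries: 0 of 12 same-numbered pairs correlated over 0.1 (r from -0.0878 to 0.0861), and 2 of 12 libraries correlated best with their own number. With the replicate block 2 retinoid genes were called in MM1R and 2 in MM1S, and among single retinoid genes it ended only the call of CYP26A1 between the KMS-12 CTRL groups (adjusted p = 0.063). Depth limits CYP26A1 in the KMS-12 lines, CYP26B1 and RARB, since few reads lie behind them.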

Other observations

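Of the 6 protein-coding genes beside CYP26A1 in the order of the RefSeq table, 3 on each side, CEP55 fell with siIRF4 in both MM1 lines and EXOC6 and HHEX did not fall in either. CYP26C1, another retinoic acid hydroxylase, was listed at 0 in the MM1 groups. EXOC6, of the exocyst complex, rose in MM1R from 11.4 to 13.7 TPM (0.25, limma adjusted p = 0.0096, but 0.055 without siIRF4 replicate 1) and had means of 17.7 and 19.0 TPM in MM1S (0.10, adjusted p = 0.30). HHEX, a homeobox factor of blood and liver, rose in MM1S from 0.338 to 1.06 TPM (0.62, adjusted p = 0.00019). On the other side, CEP55, a gene of cell division, fell from 47.5 to 27.6 TPM in MM1R (-0.77, adjusted p = 4.0e-09) and from 62.1 to 43.0 in MM1S (-0.52, adjusted p = 7.4e-07). MYOF and FFAR4 were under 1 TPM in the MM1 groups.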
